A study of Mus musculus with 16 samples.

Results

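The Jarid2 peaks described here lay at the start of a noncoding transcript and at no protein-coding start. They were taken from the list of peaks called for total Jarid2 in E14 mouse embryonic stem cells (ESC). A peak was included when its midpoint lay within 1 kb of a transcript start of the GENCODE annotation of mm9 (NCBIM37) and within 1 kb of no start of a transcript annotated as protein_coding. This gave 263 of the 4992 Jarid2 peaks (5.27%). Another 2902 peaks (58.1%) lay at a protein-coding start and 1827 (36.6%) at no start. The rule used the positions of the peaks and the annotation, and no score, K116me2 overlap or H3K27me3 value. The distances to starts given below are bounded by it. They are at most 1 kb to the nearest start and more than 1 kb to a protein-coding start.

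Jarid2 and Jarid2-K116me2, the form dimethylated on the lysine K116, were immunoprecipitated from E14 ESC grown in serum with LIF, in 1 sample for each antibody, so these lists have no replicate error. H3K27me3 was measured in 12 samples, from 2 stages, 3 lines and 2 replicates of each. All 3 lines were Jarid2 -/- ESC, without a transgene (Jarid2 KO), rescued with a Jarid2 BAC (WT rescue) or rescued with a Jarid2 K116A BAC, in which alanine replaces the lysine that is methylated (K116A rescue). The BACs were integrated by transposition, and how many clones stand behind each rescue is not given in the sources used here. The ESC were grown in serum with LIF, and the embryoid bodies (EB) were formed from them in hanging drops and collected after 8 days without LIF. EB hold several differentiating cell types, so a peak called in them is an average over cells.

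Jarid2 is a subunit of Polycomb Repressive Complex 2 (PRC2) that helps to bring the complex to chromatin. PRC2 methylates histone H3 on lysine 27, and the trimethylated mark, H3K27me3, marks silenced developmental genes. In ESC these genes are mostly regulators of lineage choice, and their starts lie in CpG islands. Many of them have noncoding neighbours: antisense and divergent transcripts at homeobox genes, long intergenic RNAs (lincRNAs), and genes of microRNAs (miRNAs) that act in neurons, skin or endocrine cells. An annotated start is a position in the annotation, and the files analysed here hold no RNA measurements, so nothing below says whether any of these transcripts was made.

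The Jarid2 list began at a score of 62.1 and the K116me2 list, of 4502 peaks, at 91.9. The score is the MACS value, minus 10 times the log10 of the p-value, which grows with depth and piles up at 3100. The number of H3K27me3 peaks ranged from 1478 to 9836 over the 6 ESC samples and from 6811 to 14125 over the 6 EB samples. The list of 1478 peaks was that of WT rescue ESC replicate 1, which stood apart, and comparisons that rest on it are given below with and without it. By the read numbers that the study gives for its libraries, this sample was not among the shallow ones. Both WT rescue EB libraries had the fewest reads of the H3K27me3 samples. The peak lists hold no read counts, so the depth behind a single peak is unknown.

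The miRNAs at these peaks are shown first, because their sequences tell which of the listed arms share a seed. Mature sequences are from the RefSeq miRNA table (GRCm38.p6), and their hairpins were found by exact match in mm9 within 1 kb of the midpoint of the peak. The seed (bases 2 to 8) is in capitals. Not every arm is listed, and the matched sequences held no 5p arm of miR-34c and no 3p arm of miR-375.
mmu-miR-9-5p (Mir9-1 and Mir9-2): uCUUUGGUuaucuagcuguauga
mmu-miR-9-3p (Mir9-1 and Mir9-2): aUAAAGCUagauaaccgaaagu
mmu-miR-137-3p: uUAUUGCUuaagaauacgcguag
mmu-miR-129-5p: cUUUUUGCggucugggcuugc
mmu-miR-129-2-3p: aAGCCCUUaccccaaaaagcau
mmu-miR-203-3p: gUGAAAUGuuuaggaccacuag
mmu-miR-375-5p: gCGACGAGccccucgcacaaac
mmu-miR-193a-3p: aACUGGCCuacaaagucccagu
mmu-miR-193b-3p: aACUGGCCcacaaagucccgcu
mmu-miR-34b-3p: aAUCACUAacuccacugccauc
mmu-miR-34c-3p: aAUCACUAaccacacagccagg
mmu-miR-34b-5p: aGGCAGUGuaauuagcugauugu
mmu-miR-1932: gUUGCGGAcagcgcuaggucgg
The 3p arms of miR-193a and miR-193b share the seed ACUGGCC although their genes lie on chromosomes 11 and 16. The 3p arms of miR-34b and miR-34c share the seed AUCACUA, and both hairpins lie under the same peak. Mir9-1 on chromosome 3 and Mir9-2 on chromosome 13 give the same mature miRNAs, and each gene had a Jarid2 peak of its own.

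The bases around the noncoding start are shown for 5 peaks: the strongest by Jarid2 score (AW047730), an antisense start at the ceiling of the score (A730090H04Rik), a start annotated as a pseudogene that RefSeq lists as protein-coding (Rassf10), the strongest peak with no K116me2 peak (Gm13422), and the start of the imprinted antisense RNA Airn. Each window holds 200 bases of mm9 centred on the start, 5′ to 3′ along the transcript, all on the plus strand. The capitals mark CG dinucleotides.
AW047730 at chr3:88004445-88004644: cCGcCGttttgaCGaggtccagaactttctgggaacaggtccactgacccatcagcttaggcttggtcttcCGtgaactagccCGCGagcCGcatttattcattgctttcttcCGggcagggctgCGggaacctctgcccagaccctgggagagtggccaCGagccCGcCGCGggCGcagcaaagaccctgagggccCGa
A730090H04Rik at chr11:95006267-95006466: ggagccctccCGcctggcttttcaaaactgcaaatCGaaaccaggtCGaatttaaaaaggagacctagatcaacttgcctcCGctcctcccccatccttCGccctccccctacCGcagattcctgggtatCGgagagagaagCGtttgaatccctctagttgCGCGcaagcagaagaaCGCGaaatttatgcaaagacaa
Rassf10 at chr7:120097608-120097807: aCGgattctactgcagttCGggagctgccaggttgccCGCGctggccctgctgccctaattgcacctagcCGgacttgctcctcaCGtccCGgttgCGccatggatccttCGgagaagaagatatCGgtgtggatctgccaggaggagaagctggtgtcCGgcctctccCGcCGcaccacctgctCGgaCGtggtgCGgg
Gm13422 at chr2:23090656-23090855: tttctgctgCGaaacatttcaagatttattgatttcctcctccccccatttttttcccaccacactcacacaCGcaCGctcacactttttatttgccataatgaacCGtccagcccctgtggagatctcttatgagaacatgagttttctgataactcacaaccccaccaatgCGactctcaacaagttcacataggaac
Airn at chr17:12934164-12934363: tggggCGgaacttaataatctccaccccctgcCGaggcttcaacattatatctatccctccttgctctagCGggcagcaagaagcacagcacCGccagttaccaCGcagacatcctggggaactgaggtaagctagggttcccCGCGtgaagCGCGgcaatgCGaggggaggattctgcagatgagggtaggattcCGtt
These windows held 15 CG dinucleotides at AW047730, 12 at A730090H04Rik, 16 at Rassf10, 5 at Gm13422 and 11 at Airn. Over the 263 noncoding starts the median was 14 in 200 bases (quartiles 7.5 and 21), and 99.6% of the windows held at least 1. Around the protein-coding start nearest to each of the 2902 coding-start peaks the median was 19 (quartiles 12 and 26), and 99.7% held at least 1.

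The 263 peaks were split by the biotype of the transcript whose start lay nearest to the midpoint. The start was that of a processed transcript, a spliced transcript without an open reading frame, for 74 peaks (28.1%). A pseudogene start was nearest for 52 peaks, a lincRNA for 45, a retained-intron transcript for 31, an antisense transcript for 30, a miRNA for 18 and a transcript subject to nonsense-mediated decay for 8. The other 5 were 2 5S rRNA genes, 1 snRNA, 1 sense-intronic transcript and 1 immunoglobulin-type joining segment. The nearest start lay at a median of 314 bp from the midpoint (quartiles 170 and 583.5 bp, n = 263). Exons held 115 of the midpoints, introns 95 and intergenic sequence 53.

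The first question was whether these peaks carry methylated Jarid2. A K116me2 peak overlapped 215 of the 263 peaks (81.7%, 95% Wilson interval 76.6% to 85.9%), where 79.1% of all Jarid2 peaks were overlapped. The share was 85.1% for the 2902 peaks at protein-coding starts (interval 83.8% to 86.4%) and 69.1% for the 1827 peaks at no start (66.9% to 71.2%). The interval of the noncoding starts thus overlapped that of the coding starts and lay above that of the peaks at no start. With 1 sample for each antibody these intervals cover counting error only. By biotype, a K116me2 peak overlapped 17 of the 18 miRNA starts (94.4%), 65 of 74 processed transcripts (87.8%), 26 of 31 retained introns (83.9%), 36 of 45 lincRNAs (80.0%), 39 of 52 pseudogenes (75%) and 22 of 30 antisense starts (73.3%). The Wilson intervals of the miRNA starts (74.2% to 99.0%) and the antisense starts (55.6% to 85.8%) overlapped, so the order of the biotypes was not resolved at these numbers.

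**Figure D1:**
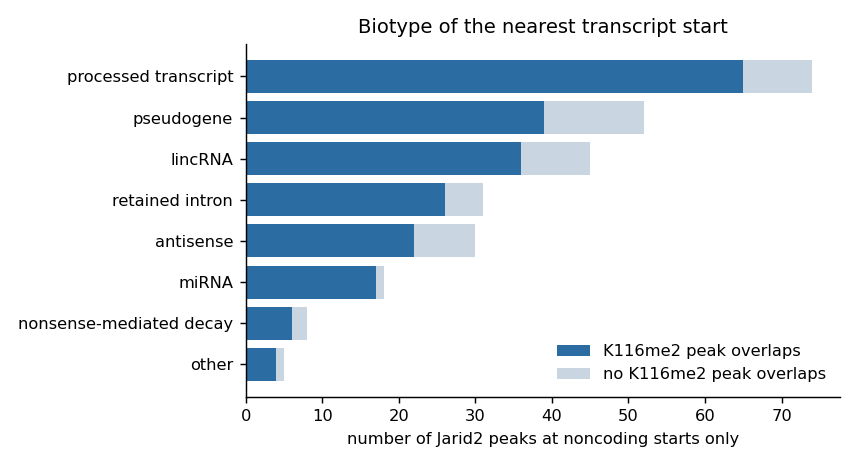
Number of Jarid2 peaks at noncoding starts only (x axis) for each biotype of the nearest transcript start (y axis), split by whether a K116me2 peak overlapped (dark) or not (light). The largest group is the 74 processed transcripts, and in each of the 8 groups most peaks were overlapped, from 22 of 30 antisense starts to 17 of 18 miRNA starts.

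The antisense starts had the highest median Jarid2 score of the groups with more than 5 peaks, 1012 over 30 peaks, and pseudogenes the lowest, 310 over 52. Several antisense starts at homeobox genes, and starts of other biotypes beside them, stood at 3100 with both antibodies. Dlx1as, antisense to the forebrain regulator Dlx1, lay under a peak of both antibodies at chr2:71363965-71385785, Dlx6os1, divergent from Dlx6, at chr6:6803811-6818049, and A730090H04Rik, listed in RefSeq as Dlx4os, at chr11:95002450-95008591. The processed transcript Six3os1, divergent from the eye and forebrain regulator Six3, lay under such a peak at chr17:86006131-86027917, and so did the lincRNA Raxos1, convergent with or overlapping the retinal regulator Rax on chromosome 18. These 5 peaks were under an H3K27me3 peak in 6 of 6 ESC samples and 6 of 6 EB samples, and each of them also covered a protein-coding start more than 1 kb from its midpoint. Also at 3100 with both were 5430417L22Rik, Gm12446 beside Foxe1, and Gm11915 beside the ephrin receptor gene Epha7, which was under H3K27me3 in 5 of 6 ESC but 2 of 6 EB samples. The strongest antisense starts without a K116me2 peak were 6430628N08Rik, with a Jarid2 score of 229, and Gm15634, with 226.

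Among lincRNA starts the highest score was at AW047730 (chr3:88003410-88006557), with 3233 for Jarid2 and 3100 for K116me2, where the midpoint lay in an exon. It lies on chromosome 3 near the peak of Mir9-1, given below. Gm17612 followed with 3225 for Jarid2 and 1575 for K116me2, but 76.7% of the 100 bp stretches of this peak occur more than once in the genome. 9930014A18Rik, convergent with Fam84b, stood at 3100 for both antibodies, and its peak also covered a protein-coding start. Miat (chr5:112655590-112658409), a lincRNA described in neurons and heart, had scores of 902 for Jarid2 and 931 for K116me2, and was under H3K27me3 in 4 of 6 ESC and 6 of 6 EB samples. The peak at C130071C03Rik, the host lincRNA of Mir9-2, is given with the miRNAs. Airn, the antisense RNA that silences Igf2r in cis, had a Jarid2 score of 67.0 (chr17:12934139-12934710), close to the lowest of the list, no K116me2 peak and no H3K27me3 peak in any of the 12 samples. Among the names of a list of noncoding RNAs chosen for their role in imprinting, development or Polycomb biology, 18 (some of them names of the same RNA) were at one of these peaks, 5, Nespas among them, only at Jarid2 peaks that were also at a coding start, and 89 had no Jarid2 peak within 1 kb. The remaining 25 names could not be matched to the annotation, directly or through RefSeq, or to a hairpin near a peak.

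Of the 18 peaks nearest to a miRNA start, 10 held a RefSeq hairpin with its start within 1 kb of the midpoint. Mir9-1 (AC044864.1 in the annotation) and Mir9-2, from which the neural miRNA miR-9 is made, had Jarid2 scores of 3100 (chr3:88018130-88021281) and 1643 (chr13:83875776-83880278), and K116me2 scores of 3100 and 713. Mir129-2, expressed in brain, had scores of 2963 and 2574 (chr2:94079770-94083033). Mir137 (AC122183.1), a miRNA of neural differentiation, had scores of 2010 and 1747 (chr3:118135683-118139119). The peaks at these 4 miRNA genes with neural functions had midpoints far from coding starts, at 38926, 214051, 83280 and 127646 bp. Each was under an H3K27me3 peak in 5 or 6 of the 6 ESC samples and in 6 of 6 EB samples.

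Outside the neural miRNAs, Mir375, a miRNA of pancreatic islet cells, had scores of 2193 for Jarid2 and 2319 for K116me2 (chr1:74945490-74948627). Mir193 (listed in RefSeq as Mir193a) had scores of 1793 and 1976 (chr11:79524094-79526521), and Mir193b, which shares the seed of its 3p arm, had lower scores of 304 and 273 (chr16:13447984-13449579). Mir203, which promotes differentiation of skin, had scores of 847 and 1244 (chr12:113367629-113370076). It was under H3K27me3 in 2 of 6 ESC samples, replicate 2 of Jarid2 KO and of K116A rescue, and in 6 of 6 EB samples. The opposite order was seen at Mir34b and Mir34c, targets of p53 (chr9:50910823-50912852, scores of 635 and 593), which were under H3K27me3 in 4 of 6 ESC samples and in 0 of 6 EB samples. Neither change in a single peak was tested. Mir1932 had scores of 660 and 506 and was under H3K27me3 in 5 of 6 ESC and 6 of 6 EB samples.

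The other 8 miRNA starts of the annotation matched no RefSeq hairpin. AC124807.1 (chr3:17692577-17696991) and AL844871.1 (chr2:56953523-56958747, 9348 bp from the nuclear receptor gene Nr4a2) stood at 3100 for Jarid2. AL672246.1 had a Jarid2 score of 331 and a K116me2 score of 656. The remaining 6, AL672246.1 included, had Jarid2 scores of 70.3 to 331, and 4 of these, AC113316.1, mmu-mir-689-2, mmu-mir-2134-4 and AC140318.1, were under no H3K27me3 peak in any of the 12 samples. The 1 miRNA start without a K116me2 peak was mmu-mir-2134-1, with a Jarid2 score of 79.2. One further peak, at Kctd12, held a miRNA start (Mir5130) within 1 kb but had another start nearer. The 10 starts with a RefSeq hairpin thus scored from 304 upwards, and the 8 without one reached from 70.3 to 3100.

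**Figure D2:**
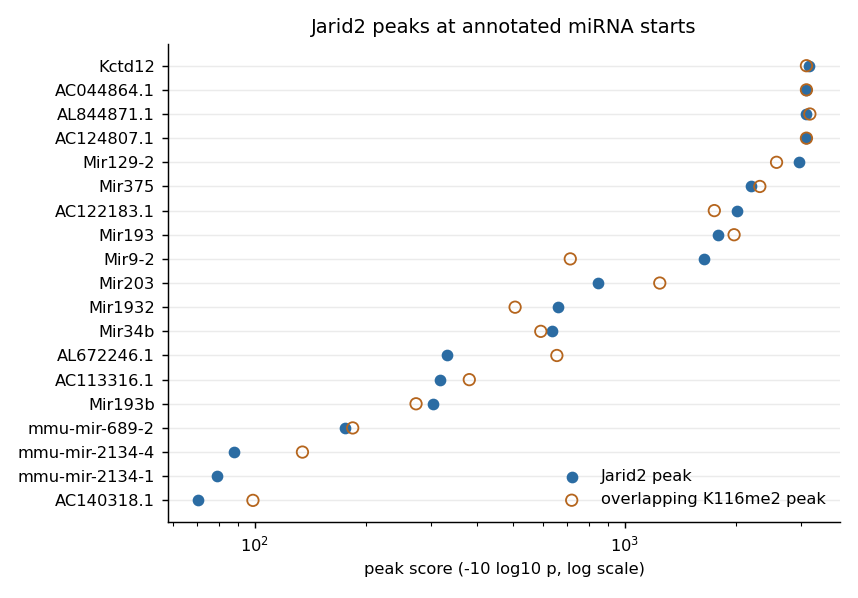
Peak score (x axis, minus 10 log10 p, log scale) of the 19 Jarid2 peaks with a miRNA start within 1 kb (y axis, named by the nearest start, where AC044864.1 is Mir9-1 and AC122183.1 is Mir137), for Jarid2 (filled) and for the overlapping K116me2 peak (open, the highest where several overlap). Only mmu-mir-2134-1 has no K116me2 peak, and the Jarid2 scores run from 70.3 at AC140318.1 to 3158 at Kctd12.

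In 88 of the 263 peaks (33.5%, 95% Wilson interval 28.0% to 39.4%) the noncoding transcript belonged to a protein-coding gene. These were 49 processed transcripts, all 31 retained introns and all 8 transcripts subject to nonsense-mediated decay. For 77 peaks the nearest protein-coding start was that of the same gene. A K116me2 peak overlapped 74 of these 88 (84.1%) and 141 of the 175 peaks at noncoding genes of their own (80.6%). The highest Jarid2 score of the 88 was 3187, at Cacnb4, a calcium channel subunit, with a midpoint 1186 bp from its protein-coding start. Prdm1, which encodes the repressor Blimp1, followed with 3168, and the midpoint of its peak lay 69538 bp from its nearest protein-coding start. The peaks at noncoding transcripts of Tcfap2d, Igfbp5, Wnt5a, Nkx2-2, Pax5, Lhx3, Fgfr2 and Cdh2 were among those at 3100. The peaks at Cacnb4, Tcfap2d, Igfbp5, Wnt5a, Lhx3 and Cdh2 each also covered a protein-coding start more than 1 kb from the midpoint. At Sgcd, a muscle membrane protein, the peak (3100 for both antibodies) lay at a processed transcript. Its midpoint was 409662 bp from the protein-coding start, the largest distance of all 263.

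Among the retained introns, the peaks at Speg, a kinase of striated muscle, Cdh2, which encodes N-cadherin, and the growth factor receptor gene Fgfr2 stood at 3100 for both antibodies, and Csmd2 had scores of 2578 for Jarid2 and 2909 for K116me2. Among transcripts subject to nonsense-mediated decay, Fam20c, a kinase of secreted proteins, had scores of 2271 and 3100, Celf2, an RNA-binding splicing regulator, 804 and 533, Chst9, a sulfotransferase, 634 and 635, and Chadl 499 and 443. The sense-intronic transcript Gm16076, nearest to the receptor gene Erbb4, stood at 3100 with both, and its peak also covered a protein-coding start. The snRNA U6 had 330 and 377.

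At 175 peaks GENCODE gave the gene as noncoding or a pseudogene, and at 27 of them RefSeq, a later annotation, listed it as protein-coding. Of the 175, 114 were matched in RefSeq by identifier, symbol or synonym. The 61 without a match count below as not coding in RefSeq. Among the 27 were Kctd12 (Jarid2 score 3158), Rassf10 (3100), the blood regulator Gfi1 (3100), the adipocyte and myeloid regulator Cebpd (876), the Wnt pathway gene Frat1 (536) and the Wnt receptor Fzd10 (475). Pabpc1l2a-ps and Pabpc1l2b-ps on chromosome X had scores of 1722 and 1771, and 93.7% and 94.7% of their 100 bp stretches occur more than once in the genome. Altogether 115 of the 263 peaks lay at a gene that is protein-coding in GENCODE or in RefSeq, and 148 (56.3%) at a gene listed as coding in neither. Of these 148, a K116me2 peak overlapped 117 (79.1%, 95% Wilson interval 71.8% to 84.8%), and their median Jarid2 score was 445, against 524 over all 263.

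Pseudogene starts had a median Jarid2 score of 310, against 524 over all 263 peaks. Of the 52, 20 were transcribed processed pseudogenes, and only 4 of the 52 scored 3100 or more: Kctd12, F930015N05Rik, Gm13889 and Rassf10. All but F930015N05Rik of these 4 are protein-coding in RefSeq, and the peak at F930015N05Rik covered a protein-coding start. Pseudogenes were also the group with the most repeated sequence, with over 50% of the 100 bp stretches found more than once in the genome in 11 of 52 peaks, against 3 peaks of all other biotypes together. The 2 5S rRNA peaks on chromosome 8 were the widest of these 3, n-R5s118 at chr8:126061027-126124344 and n-R5s143 at chr8:126124362-126148675, with 92.7% and 90.5% of their stretches repeated. The authors' mapping placed a read that fits several locations at one of them, so the score of such a peak cannot be assigned to a single copy. Several pseudogene starts lay in the major histocompatibility complex of chromosome 17, with a class I gene as the nearest coding gene. C920025E04Rik had scores of 912 for Jarid2 and 851 for K116me2, H2-Q8 721 and 729, Gm8835 639 and 605, and Gm6571 202 and 197. Gm20392 and Gm20495 had Jarid2 scores of 73.9 and 63.5 and no K116me2 peak. Outside this region, Gm15847 had 1522 and 1773, Gm16425 930 and 915, and Gm14121 738 and 777. Without the 14 peaks over 50% repeated, a K116me2 peak overlapped 203 of 249 (81.5%).

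The Jarid2 score of the 263 peaks had a median of 524 (quartiles 201 and 1549), against 577 at protein-coding starts (207 and 1760) and 357 at no start (129 and 1553). The median width was 1884 bp, against 1949 bp and 1705 bp. Overlap with K116me2 followed the score. Under a score of 100, 6 of 35 peaks were overlapped (17.1%), from 100 to under 200, 17 of 30 (56.7%), from 200 to under 500, 60 of 66 (90.9%), from 500 to under 3100 all 91, and at 3100 or more all 41. The coding-start peaks of the same bands gave 25.5%, 55.5%, 93.4%, 100.0% and 100.0%. The 48 peaks without K116me2 had a median score of 91.3 and a median width of 860.5 bp, against 721 and 2213 bp for the 215 with it. Because the K116me2 list began at a higher score than the Jarid2 list, weak sites could pass in one list and not in the other. The highest Jarid2 score without a K116me2 peak was 372, at the pseudogene Gm13422 (chr2:23089123-23091365), followed by the lincRNA Gm16956 with 240, the antisense starts 6430628N08Rik and Gm15634 named above, and Npdc1 with 207.

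**Figure D3:**
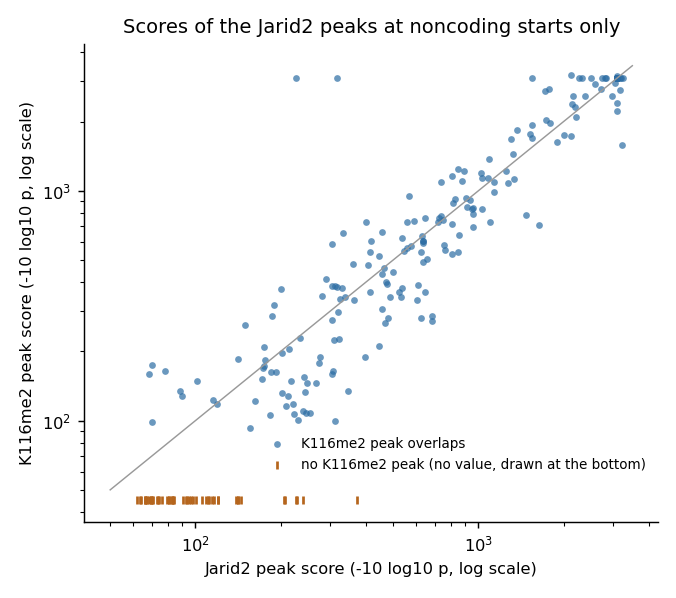
Score of each of the 263 peaks for Jarid2 (x axis) and of the overlapping K116me2 peak (y axis), both as minus 10 log10 p on log scales, where the grey line marks equal scores. The 48 peaks without a K116me2 peak have no y value, are drawn as orange ticks at the bottom, and all score 372 or less for Jarid2.

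Where both scores were below 3100, the K116me2 score was the higher one at 70 of 164 peaks (42.7%). This was so at 1156 of 1952 coding-start peaks (59.2%) and at 392 of 915 peaks at no start (42.8%). The scores come from different antibodies and depths, so the position of the line has no meaning of its own, and the difference between classes has no replicate behind it. The K116me2 list held 258 peaks at noncoding starts only, by the same rule. All but 2 of them overlapped a Jarid2 peak. These 2 were weak, 98.5 at the pseudogene Gm12895 and 124 at a 5S rRNA start.

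The nearest protein-coding start lay at a median of 8504 bp from the midpoint (quartiles 2110.5 and 37353 bp, range 1012 to 409662 bp, n = 263). By bins, 63 peaks lay at 1 to 2 kb, 37 at 2 to 5 kb, 42 at 5 to 10 kb, 71 at 10 to 50 kb and 50 farther than 50 kb. A peak can be wide enough to reach a coding start although its midpoint does not, and 36 of the 263 did, of which 28 were in the bin of 1 to 2 kb. For the 175 peaks at noncoding genes of their own the median distance was 15594 bp. A K116me2 peak overlapped 56 of 63 peaks in the nearest bin (88.9%) and 42 of 50 in the farthest (84.0%). The 5 farthest were Sgcd, 2610035D17Rik (364491 bp from Slc39a11), Gm13652 (311742 bp from Mtx2), RP23-71I22.5 (251330 bp from Gm17680) and a start of Sox5 (250570 bp from Bcat1). Of these, only 2610035D17Rik had no K116me2 peak.

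**Figure D4:**
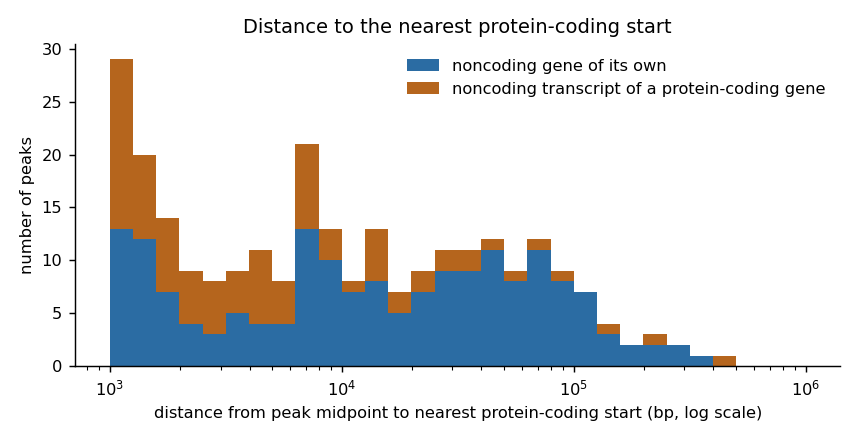
Distance from the peak midpoint to the nearest protein-coding start (x axis, bp, log scale) against the number of peaks (y axis), stacked for 175 peaks at noncoding genes of their own and 88 at noncoding transcripts of protein-coding genes. The distances run from 1012 to 409662 bp, with 63 peaks below 2 kb.

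The noncoding transcript ran on the same strand as the nearest protein-coding transcript for 161 peaks, was divergent from it for 54 and convergent or overlapping for 48. Among the 48 peaks at noncoding genes of their own with a coding start within 5 kb, 18 were divergent, 12 on the same strand and 18 convergent or overlapping. Of the 30 antisense starts, 16 were convergent or overlapping, 8 divergent and 6 on the same strand as the coding transcript nearest to the peak, which need not be the gene to which they are antisense.

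The nearest protein-coding genes were set against lists of developmental regulators. Of the 263 peaks, 41 (15.6%) had as nearest protein-coding gene one of 518 annotated genes from 16 lists of developmental families, signalling genes and Polycomb or pluripotency genes. This was close to the 14.8% of all 4992 Jarid2 peaks, and the share was 7.65% of the 2902 at protein-coding starts. Most of the 740 peaks behind the 14.8% lay at no start, so the share was higher there than at noncoding starts. The 41 had a median Jarid2 score of 2162, 18 of them scored 3100 or more, and a K116me2 peak overlapped 37. The other 222 had a median score of 415, and 178 were overlapped by K116me2. All 6 EB samples had an H3K27me3 peak over 31 of the 41 (75.6%) and over 98 of the 222 (44.1%). The part of the higher scores in these differences was not tested. The same shares were not taken for the other Jarid2 peaks next to listed genes, so the differences may not be particular to noncoding starts.

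By family, the neighbours included Dlx1, Dlx4 and Dlx6, Pax2 and Pax5, Hoxb13, Nkx2-2 and Nkx6-3, Lhx3 and Lhx6, Tbx15 and T, Six3, Irx3, Gata5 and Foxe1, and among other homeobox genes Barhl2, Emx1, Meis2, Pitx3, Rax and Tlx1. No listed Sox gene had the nearest protein-coding start of any peak, although a peak lay at a noncoding start of Sox5, named above. At Irx3, D230002A01Rik was divergent with both scores at 3100 (chr8:94321391-94332260), as was G630016G05Rik at Meis2 (chr2:115885842-115903299). The peak at G630016G05Rik also covered a protein-coding start. A830082K12Rik, divergent from the nuclear receptor gene Nr2f1, had scores of 3038 and 2958. The lowest scores of the 41 were 69.5 at Gm15816 (nearest to Nkx6-3), 70.7 at Gm16702 (nearest to T, the mesoderm regulator Brachyury, 45275 bp away) and 94.8 at a transcript of Ezh2, the catalytic subunit of PRC2. None of these 3 had a K116me2 peak.

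The 300 bp around the midpoint had a median ratio of observed to expected CpG of 0.696 (quartiles 0.461 and 0.876), against 0.727 at protein-coding starts and 0.565 at no start. The median GC content was 61.3%, against 64.3% and 56.7%. Peaks with K116me2 had a median CpG ratio of 0.722 and those without it of 0.525. Over the 7 named biotypes the median ratio ran from 0.605 at antisense starts to 0.788 at transcripts subject to nonsense-mediated decay, with pseudogenes at 0.774 and miRNAs at 0.755. The 27 peaks at genes that are protein-coding in RefSeq only had 0.823, and the 148 at genes listed as coding in neither annotation 0.626.

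The share of the 263 peaks under an H3K27me3 peak in ESC was 47.9% and 82.9% in the Jarid2 KO replicates 1 and 2, 12.9% and 71.9% in WT rescue, and 54.0% and 76.0% in K116A rescue. In EB it was 63.5% and 68.1% in Jarid2 KO, 58.2% and 60.5% in WT rescue, and 65.0% and 73.0% in K116A rescue. The ESC values ranged more widely than those of EB and enclosed them. Replicate 2 had the higher share in all 6 groups, and the number of peaks called was also higher in replicate 2 in each group. Whether peak number sets the share was not tested. With 2 replicates the means were 65.4% ± 24.7 (SD, n = 2) for Jarid2 KO ESC, 42.4% ± 41.7 for WT rescue ESC (71.9% in replicate 2 alone), 65.0% ± 15.6 for K116A rescue ESC, 65.8% ± 3.23 for Jarid2 KO EB, 59.3% ± 1.61 for WT rescue EB and 69.0% ± 5.65 for K116A rescue EB.

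To ask whether the mark over noncoding starts depends on differentiation, on Jarid2 or on its methylation, the shares were compared over samples by exact permutation, two-sided, with p-values adjusted over the 6 comparisons by the method of Benjamini and Hochberg. EB exceeded ESC by 7.10 points (exact permutation within line, p = 0.593, adjusted p = 0.593), and without WT rescue ESC replicate 1 the difference was -2.72 points. With replicates 2 alone, which the study describes as of higher quality, it was -9.76 points, without a test. Jarid2 KO exceeded WT rescue by 14.7 points (exact permutation within stage, p = 0.389, adjusted p = 0.583) and K116A rescue exceeded it by 16.2 points (p = 0.333 by the same exact permutation, adjusted p = 0.583). Both rest on WT rescue ESC replicate 1 too, since without it they were 0.0 and 1.43 points. The design for the lines cannot give a p below 0.0556, so these comparisons could not pass 0.05. None of the 3 differences stood out from the spread between replicates. In EB, line and read number cannot be told apart, since the WT rescue libraries had the fewest reads.

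The gap to the coding-start peaks was taken within each sample, since both classes are read from the same H3K27me3 list. In EB the noncoding starts were covered more often in all 6 samples, by 5.5 and 4.62 points in Jarid2 KO, 2.70 and 4.08 in WT rescue and 3.85 and 3.26 in K116A rescue. In ESC the gaps were 2.97 and -0.811 points in Jarid2 KO, 0.212 and -0.708 in WT rescue and -0.487 and -1.94 in K116A rescue. The stages overlapped at a single value, that of Jarid2 KO ESC replicate 1. The mean gap was 4.0 points ± 0.993 (SD, n = 6) in EB and -0.126 ± 1.67 (SD, n = 6) in ESC. The difference of 4.13 points had an exact permutation p of 0.00926, the smallest that the 216 arrangements can give, and an adjusted p of 0.0556, which misses 0.05. With the 1478 strongest H3K27me3 peaks of each sample, the length of the list of WT rescue ESC replicate 1, it was -0.124 points (exact permutation, p = 0.898). Without that sample, and with the 3554 strongest peaks of each of the others, it was -0.295 points (exact permutation, p = 0.824). With the 148 peaks at genes coding in neither annotation it was 2.66 points (exact permutation, p = 0.204).

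**Figure D5:**
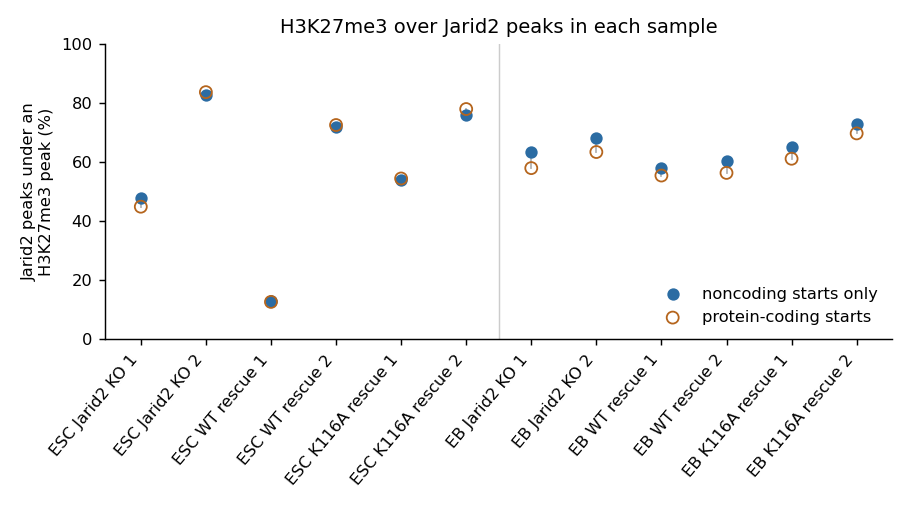
Percent of Jarid2 peaks under an H3K27me3 peak (y axis) in each of the 12 samples (x axis), for the 263 peaks at noncoding starts only (filled) and the 2902 at protein-coding starts (open), joined by a grey line. Filled points lie above open ones in all 6 EB samples and in 2 of 6 ESC samples, and WT rescue ESC replicate 1 lies far below the rest.

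The gap did not differ detectably between lines. It was higher in Jarid2 KO than in WT rescue by 1.5 points (exact permutation, p = 0.222, adjusted p = 0.583) and lower in K116A rescue than in WT rescue, at -0.398 points (exact permutation, p = 0.5, adjusted p = 0.593). The same limit of 0.0556 on p holds here.

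All 6 ESC samples had an H3K27me3 peak over 34 of the 263 peaks (12.9%), against 13.8% of all Jarid2 peaks, a number held down by WT rescue ESC replicate 1. All of the other 5 ESC samples had one over 115 (43.7%, 95% Wilson interval 37.9% to 49.8%), against 40.3% of all Jarid2 peaks. All 6 EB samples had one over 129 (49.0%, 95% Wilson interval 43.1% to 55.1%), against 44.5% of all Jarid2 peaks. None of the 12 samples had one over 29 (11.0%, interval 7.79% to 15.4%), against 13.4% of all Jarid2 peaks. These shares were close to those of all Jarid2 peaks. Of the 29, 10 were at pseudogenes, 5 at lincRNAs and 4 at miRNA starts. In each of the 12 samples the mark covered a larger share of the peaks with K116me2 than of those without it, in EB 64.7% to 79.5% against 27.1% to 47.9%. The same order held at coding starts in 12 of 12 samples. The peaks without K116me2 had the lower Jarid2 scores, whose part in this was not tested.

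By biotype, H3K27me3 covered on average 74.5% of the processed transcripts and 74.4% of the antisense starts over the 6 EB samples, 62.6% of the lincRNAs, 61.3% of the retained introns, 55.6% of the miRNA starts and 51.6% of the pseudogenes. Processed transcripts and antisense starts were above pseudogenes in 12 of 12 samples, and lincRNAs were in 10 of 12. The peaks of a biotype are the same in every sample, so the 12 samples do not count as 12 draws of peaks.

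Only a few peaks followed the line in EB. 2210408F21Rik (chr6:31169720-31170656, Jarid2 score 192) was the 1 peak under H3K27me3 in both WT rescue EB samples and in none of the 4 Jarid2 KO and K116A rescue EB samples, a pattern of 0.341% of all Jarid2 peaks. The reverse pattern was found at 3 peaks, Pdgfa, Gabrb2 and Gm16701, with Jarid2 scores of 303, 111 and 82.6, and at 1.74% of all Jarid2 peaks. Pdgfa encodes a growth factor and Gabrb2 a subunit of the GABA-A receptor. Counts of 1 and 3 peaks do not separate either share from that of the whole list. WT rescue EB also had the fewest reads, so line and read number cannot be told apart in these patterns.

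No peak was under H3K27me3 in at least 5 ESC samples and in no EB sample, a pattern of 0.962% of all Jarid2 peaks. The reverse, at least 5 EB samples and no ESC sample, was found at 4 peaks, against 0.761% of all Jarid2 peaks. They were 2 peaks at the lincRNA A930011O12Rik, listed in RefSeq as the host gene of a miR-124 hairpin, and 1 each at Map3k6 and Odz1, which were named after their values were seen. The A930011O12Rik peaks had Jarid2 scores of 200 and 109.

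At the limit of the rule, the 3 peaks just inside were Fzd10, Gm3764 and Dlx1as, with midpoints 998, 997 and 992 bp from the noncoding start and Jarid2 scores of 475, 98.0 and 3100. The 3 peaks just outside, with a noncoding start nearest, were at Gm14207, Cecr6 and AC110909.1, at 1018, 1019 and 1035 bp, with Jarid2 scores of 3100, 2310 and 3100.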

How the data were processed

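The authors mapped single-end reads to mm9 with Bowtie2 2.1.0 and kept 1 location of a read with several. PCR duplicates were removed by the authors, who called Jarid2 and K116me2 peaks with MACS 1.4.2 against input and broad H3K27me3 peaks with MACS2 2.0.10, for each sample separately. The deposited lists give the position and a score of each peak. The score is minus 10 log10 p for Jarid2 and K116me2, and its scale is not given for H3K27me3. The deposited lists hold no read counts, so the depth behind a peak is unknown. The study gives read numbers for its libraries, which were used here only to say which libraries were shallow. Lists of 14 of the 16 samples were used, and the others were the inputs of E14 ESC and of Jarid2 KO ESC. The EB and the rescue lines thus had no input of their own among the samples.

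Distances were taken from peak midpoints to transcript starts of GENCODE vM1 (NCBIM37, the same build as mm9). Overlap meant at least 1 bp. A peak was under H3K27me3 when a peak of that sample overlapped it. GC, CpG and repeats (100 bp stretches found more than once, either strand) were read from the genome. Stages were permuted within line (216 arrangements) and lines within stage (36), exactly and two-sided. Intervals are 95% Wilson intervals and cover counting error only. Functions were tested on simulated peaks. Python 3.11.15, pandas 2.3.3, scipy 1.17.1, pysam 0.24.0 and matplotlib 3.10.9 were used.

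Members and lists were chosen with earlier results of these data known. Named peaks were the 4 with the highest Jarid2 score of each biotype, every peak at a miRNA start, the 5 strongest without K116me2, the 5 farthest from a coding start, those at listed noncoding RNAs, those that followed the line in EB, and up to 3 on either side of the limit. Peaks next to listed genes, those that RefSeq lists as coding and weak examples were named after their values were seen. Not every peak the rule names is given. The result for 1 neighbouring gene is not reported here. The alternatives, other distances, overlaps, thresholds, definitions of coding and samples left out, are given at the end.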

Additional observations from a re-analysis of the deposited data

How the results depend on the processing

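The number of peaks was 171 when all transcripts of protein-coding genes counted as coding and 148 without genes coding in RefSeq, and 249 to 306 otherwise. Both definitions leave, by construction, a share of 0.0% in protein-coding genes. That share was 45.8% at 500 bp and 21.1% at 5 kb. The median distance to a coding start was 1716 bp at 500 bp, 14571 bp at 2 kb and 19707 bp at 5 kb, 15830 bp by gene and 14313 bp without genes coding in RefSeq. The median Jarid2 score was 363 with any base of the peak over the start. The share overlapping K116me2 was 75.7% at 5 kb, 76.0% and 70.0% with at least 50% of the Jarid2 peak or of both peaks, 91.7% and 97% at Jarid2 scores of at least 100 and 200, 89.7% above the lowest K116me2 score, 89.4% with equal numbers of peaks and 66.2% at K116me2 scores of at least 200.

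The gap between stages was 1.18 points with H3K27me3 scores of at least 50 (exact permutation, p = 0.315), 2.66 points without coding genes and -0.124 points with equal numbers of H3K27me3 peaks, settings chosen after seeing the data, as was leaving out repeated peaks. With equal numbers and without WT rescue ESC replicate 1, also chosen after seeing the data, the share differed between stages by -4.25 points and the gap by -0.295 points. The gap of Jarid2 KO was -1.91 points without coding genes. The gap of K116A rescue was 0.217 points with 50% of the peak covered, 0.0635 with scores of at least 50 and 1.77 with equal numbers. With replicates 2 alone, which leave 1 sample a group and no test, the share differed between stages by -9.76 points and the gap by 5.14 points. Leaving out single samples gave, for the share, -2.72 to 16.9 points between stages, 0.0 to 29.5 for Jarid2 KO and 1.43 to 30.9 for K116A rescue, and, for the gap, 3.50 to 4.76, 0.555 to 2.45 and -0.76 to -0.0359. The cause of these changes was not tested.

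With the replicate number as a replicate block, the differences of 7.10, 14.7, 16.2, 4.13, 1.5 and -0.398 points were the same by construction, and the block changed no call at an unadjusted 0.05. The exact permutation p of the gap between stages was then 0.03125. For the share, the exact permutation p with the block was 0.125 for Jarid2 KO and 0.125 for K116A rescue. Same-numbered samples deviated in the same direction in all 15 pairs of groups (correlations of 0.0212 to 0.447, 6 of them above 0.1). Replicate 2 also had the higher share and more called peaks in all 6 groups. The main tests did not take the numbers as pairs, and a shift common to same-numbered samples was not tested. The alternative of a q threshold for H3K27me3 was not run, since the lists have no q values. The number of reads behind a peak is unknown.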
